A study of Mus musculus with 4 samples.

Results

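The genes described here encode nuclear subunits of the oxidative phosphorylation (OXPHOS) complexes, the respiratory chain and ATP synthase of the inner mitochondrial membrane. They were taken by name, as every gene symbol of the deposited table that starts with Nduf followed by a, b, c, s or v and a digit, with Uqcr, with Cox and a digit of 4 to 8, or with Atp5, together with Sdha, Sdhb, Sdhc and Sdhd. This rule used no measured value and gave 83 of 24907 genes, of which 35 belong to complex I, 4 to complex II, 8 to complex III, 20 to complex IV and 16 to complex V. Ndufa4 and Ndufa4l2 were counted with complex IV, where the Ndufa4 protein is now placed. The RNA came from ASZ001, an established mouse basal cell carcinoma (BCC) cell line. The c-FOS group carried a doxycycline-inducible vector encoding c-FOS, a subunit of the transcription factor AP-1, and the control group carried the same kind of vector without an insert. Each group had 2 libraries of total RNA from adherent cells, and both groups received doxycycline, an antibiotic that is also known to inhibit translation by mitochondrial ribosomes. All 4 libraries are from drug-treated cells, so induced c-FOS and any other difference between the vector-carrying cells cannot be told apart. The labels do not say whether the cells were a clone or whether each library had its own culture. The p-values therefore reflect the spread between these 4 libraries and may measure technical variation.

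As background, complex I (NADH dehydrogenase) and complex II (succinate dehydrogenase) pass electrons from nutrients to coenzyme Q. Complex III passes them on to cytochrome c, complex IV (cytochrome c oxidase) reduces oxygen with them, and complex V (ATP synthase) makes ATP with the proton gradient that complexes I, III and IV build. All but complex II join nuclear subunits to subunits made inside the mitochondrion. The deposited table had no row for the 13 mitochondrially encoded subunits looked up, so they could not be analysed here. Nuclear OXPHOS genes are known to be served by the transcription factors NRF1, the ETS protein GABP, YY1 and the estrogen-related receptors (ERR), with the coactivator PGC-1alpha (gene Ppargc1a).

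Promoter windows were available for 68 of the 83 genes, from RefSeq on build GRCm38.p6, each running from 250 bases before to 50 bases after a transcription start. Both strands were searched for 5 motifs. The palindromic NRF1 core, in capitals in the Uqcrc1 window below, was found in 5 of the 68 (7.35%), against 1.47% of the windows of 17492 protein-coding genes. AAGATGGC (YY1 core) was found in 10 (14.7%, against 3.57%), CCGGAAG (ETS core) in 16 (23.5%, against 12.9%) and TCAAGGTCA (ERR element) in 2, Atp5g3 and Sdhd (2.94%, against 0.377%). TGANTCA, the element that AP-1 binds, was found in 7 (10.3%, against 8.12%): Atp5c1, Atp5g1, Cox7c, Ndufa13, Ndufa5, Ndufa9 and Uqcrh. These are matches of letters, not shown binding sites, and no overlap between different motifs was removed. A window of each motif class is printed below, 5′ to 3′ on the strand of the gene, with the match in capitals: Uqcrc1 (chr9:108936398-108936697, plus strand) with the NRF1 core, Atp5g3 (chr2:73911277-73911576, minus strand) with the ERR element on the other strand, Cox8a (chr19:7217567-7217866, minus strand) with the ETS core on the other strand at 2 places, Ndufs6 (chr13:73328433-73328732, minus strand) with the YY1 core, and Ndufa5 (chr6:24527477-24527776, minus strand, 1 of 2 windows) with the AP-1 element.
Uqcrc1: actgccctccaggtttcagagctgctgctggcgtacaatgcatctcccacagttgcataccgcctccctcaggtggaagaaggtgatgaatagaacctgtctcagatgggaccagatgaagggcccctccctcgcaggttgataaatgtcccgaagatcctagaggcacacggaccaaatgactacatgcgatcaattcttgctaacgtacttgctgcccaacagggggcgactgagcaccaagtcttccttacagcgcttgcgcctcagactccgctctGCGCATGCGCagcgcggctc
Atp5g3: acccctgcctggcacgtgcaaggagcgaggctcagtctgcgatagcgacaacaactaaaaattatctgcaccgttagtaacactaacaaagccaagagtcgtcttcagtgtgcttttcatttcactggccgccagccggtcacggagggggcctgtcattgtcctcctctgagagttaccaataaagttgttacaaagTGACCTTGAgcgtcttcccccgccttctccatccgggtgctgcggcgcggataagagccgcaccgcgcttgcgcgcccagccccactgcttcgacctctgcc
Cox8a: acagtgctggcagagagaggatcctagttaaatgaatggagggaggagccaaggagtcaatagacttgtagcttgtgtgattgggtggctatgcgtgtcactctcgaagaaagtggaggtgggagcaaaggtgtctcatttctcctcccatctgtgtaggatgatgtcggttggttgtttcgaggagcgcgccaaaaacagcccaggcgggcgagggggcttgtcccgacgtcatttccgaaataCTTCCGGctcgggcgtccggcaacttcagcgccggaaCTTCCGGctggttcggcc
Ndufs6: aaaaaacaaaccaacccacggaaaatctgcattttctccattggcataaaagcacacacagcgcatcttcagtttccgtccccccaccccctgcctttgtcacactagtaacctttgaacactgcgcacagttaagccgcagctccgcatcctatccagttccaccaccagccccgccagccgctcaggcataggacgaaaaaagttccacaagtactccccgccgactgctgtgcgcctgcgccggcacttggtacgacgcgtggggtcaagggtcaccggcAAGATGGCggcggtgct
Ndufa5: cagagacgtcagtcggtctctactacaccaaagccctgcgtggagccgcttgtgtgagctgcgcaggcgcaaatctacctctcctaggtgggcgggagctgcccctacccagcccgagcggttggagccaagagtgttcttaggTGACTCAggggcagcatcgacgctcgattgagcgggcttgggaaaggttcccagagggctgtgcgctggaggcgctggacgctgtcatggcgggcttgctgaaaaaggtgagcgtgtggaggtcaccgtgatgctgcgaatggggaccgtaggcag
The median log2 fold change was -0.28 for the 7 genes with the AP-1 element and -0.32 for the 57 tested genes without it, -0.27 (5 genes) and -0.32 (59) for the NRF1 core, -0.30 (10) and -0.31 (54) for the YY1 core, and -0.26 (16) and -0.32 (48) for the ETS core. The 2 genes with the ERR element had a median of -0.49, against -0.31 for the 62 without it. No test was made of these differences.

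The counts summed to 29200592 and 32465409 in the c-FOS libraries and 28405433 and 29822437.5 in the control libraries. Fos, the gene in the vector, had 296.7 and 313.3 CPM (counts-per-million) in c-FOS cells and 0.403 and 0.351 CPM in control cells, as the labels say. The library sizes behind CPM were multiplied by trimmed mean of M-values (TMM) factors, which were 0.953 and 0.954 in the c-FOS group and 1.05 in each control library. Of the 12791 genes with enough counts to test, 67.1% passed edgeR's quasi-likelihood test at an adjusted p of 0.05, 33.8% higher and 33.3% lower in c-FOS cells. Basal keratinocyte markers, which fit the labelled origin, were abundant in every library. The summed level of these 6 genes (Krt5, Krt14, Trp63, Itga6, Itgb4 and Col17a1) was 13340 and 13680 CPM in c-FOS cells and 26790 and 26680 CPM in control cells, 5 of them were lower and Itga6 was higher. The 5 markers of Hedgehog-active BCC summed to 27.3 and 26.0 CPM in c-FOS cells and 54.8 and 53.4 CPM in control cells, with Hhip at 0 in every library.

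Transcripts of the OXPHOS subunits fell together in c-FOS cells. Of the 83 genes, 75 had enough counts to test, and of these 64 were lower, 0 were higher and 11 did not pass, against 33.3% of all tested genes called lower. Their summed level was 7231 and 7319 CPM in the c-FOS libraries, against 9300 and 9161 CPM in the control libraries. The c-FOS libraries lay well below the control libraries, and the sum was 21.2% lower (7275 ± 62.3 CPM in c-FOS cells, 9230 ± 98.98 CPM in control cells, SD, n = 2). The individual decreases were modest: the median log2 fold change was -0.31, against -0.01 over all tested genes, and the tested members ranged from -0.75 to 0.35. In 70 of the 75, both c-FOS libraries lay below both control libraries, which was so for 42.1% of all tested genes. In 2, Ndufb4 and Sdha, both lay above, against 41.5% of all tested genes. At an unadjusted p under 0.05 edgeR also had 0 members higher, and so had DESeq2, which called 58 lower, against 23.8% of the genes it tested. Scaled by library totals alone, 70 were lower, against 46% of all tested genes. With a trend on gene length removed in each library (the length correction), 47 were lower and 3 higher, and the median was -0.16.

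Other differences between the groups moved with this decrease. Beside the counts in this paragraph, 33.8% of all tested genes were higher and 33.3% lower. All 15 proliferation genes fell, with a summed level of 421.6 and 367.5 CPM in c-FOS cells and 1489 and 1732 CPM in control cells and a median log2 fold change of -2.27. Transcripts of the cytosolic ribosome summed to 4217 and 4164 CPM in c-FOS cells and 5934 and 5948 CPM in control cells, and 59 of 79 tested were lower (median -0.50, but -0.32 and 51 lower with the length correction). The marker lists of other cell types summed to at most 102.9 CPM in any library. The 8 fibroblast markers summed to 17.7 and 19.2 CPM in c-FOS cells and 5.45 and 5.68 CPM in control cells. Of 4 tested, 3 were higher (Pdgfra, Pdgfrb and Col1a2). Most of the sum was Pdgfra (11.4 and 11.9 CPM in c-FOS cells, 4.24 and 4.25 CPM in control cells). Dcn, with too few counts to test, was lower in c-FOS cells. Col3a1 and Lum had at most 1 count in any library, and Thy1 was at 0 throughout. The 8 leukocyte markers summed to 41.4 and 44.9 CPM in c-FOS cells and 18.8 and 16.98 CPM in control cells, and 3 of 3 tested were higher. Most of this rise was in Csf1r (18.4 and 18.5 CPM in c-FOS cells, 0.403 and 0.224 CPM in control cells). Ptprc, Itgam and Adgre1 were at or below 0.108 CPM in every library, and Cd3e and Cd79a were at 0. The 4 endothelial markers summed to 102.9 and 102.3 CPM in c-FOS cells and 83.7 and 80.3 CPM in control cells, 2 of 2 tested were higher and Kdr was at 0. The 5 melanocyte markers summed to 48.6 and 51.2 CPM in c-FOS cells and 49.4 and 51.7 CPM in control cells, neither of the 2 tested passed and Mlana was at 0. Nearly all of this sum was Mitf (48.0 and 50.8 CPM in c-FOS cells, 48.7 and 50.9 CPM in control cells). Dct and Tyrp1 were at or below 0.0359 CPM in every library. The part of these differences in the OXPHOS result was not tested. In RNA of whole cultures, fewer cells with a given transcript and less of it per cell cannot be told apart.

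**Figure D1:**
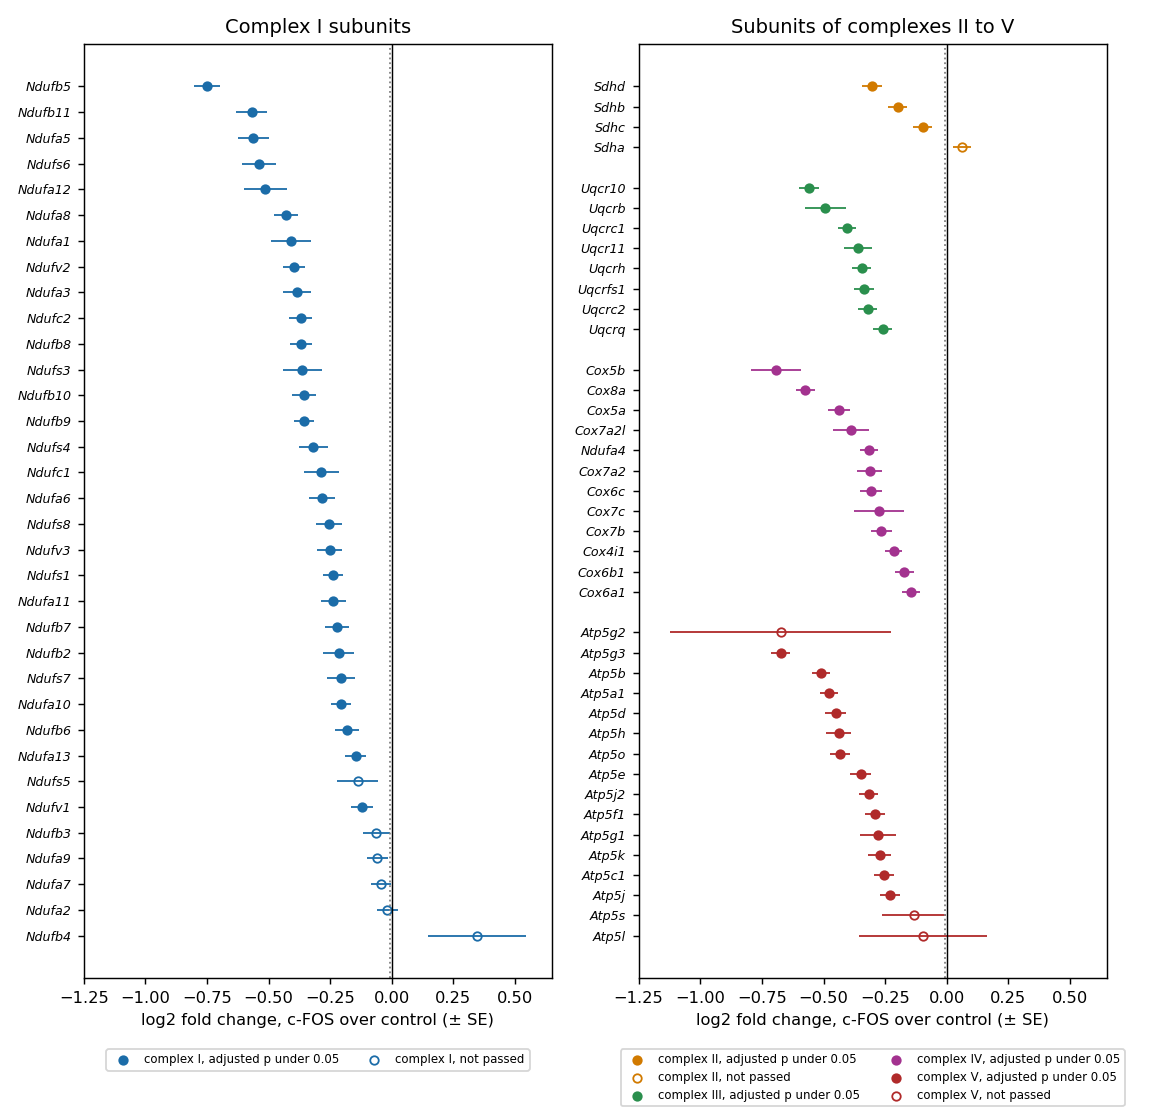
Log2 fold change of 74 of the 75 tested OXPHOS genes, c-FOS over control, with its standard error (2 libraries per group). Filled points passed the edgeR test at an adjusted p of 0.05, open points did not, and the dotted grey line is the median of all tested genes (-0.01); every filled point lies left of zero.

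Complex I, the entry point of NADH electrons, had 28 of its 35 genes lower, a median log2 fold change of -0.26 and a summed level 15.3% lower (2010 ± 19.9 CPM in c-FOS cells, 2374 ± 21.8 CPM in control cells, SD, n = 2). In the arm that takes up NADH, 8 of 10 genes were lower and the sum was 13.5% lower. In the arm that reduces coenzyme Q, 4 of 6 were lower and the sum was 9.29% lower. In the membrane arm that pumps protons, 16 of 19 were lower and the sum was 19.3% lower. Beside these counts and those of the other complexes below, 33.3% of all tested genes were lower. The difference between the arms was not tested.

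Among the core genes of complex I, Ndufv1 and Ndufs1 were lower by small amounts. Of other core genes, Ndufv2 (-0.40), Ndufs3 (-0.36) and Ndufs8 (-0.26) fell by more than Ndufs1, and Ndufs7 (-0.21) by less. Ndufv1, which carries the NADH-binding flavin site, had 123.3 and 128.7 CPM in c-FOS cells and 142.1 and 132.3 CPM in control cells. Both c-FOS libraries were below both control libraries, though c-FOS replicate 2 and control replicate 2 were close (log2 fold change -0.12 ± 0.04 SE, adjusted p = 0.0269). Ndufs1, which holds iron-sulphur clusters next to it, had 105.0 and 109.1 CPM in c-FOS cells and 127.0 and 125.4 CPM in control cells, a clear separation (-0.24 ± 0.04 SE, adjusted p = 0.000132).

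The largest decreases in complex I were in accessory subunits, which surround the core and hold no redox centre. Ndufb5, of the membrane arm, had 35.3 and 35.6 CPM in c-FOS cells and 58.0 and 61.4 CPM in control cells. Its groups lay far apart, and its log2 fold change of -0.75 ± 0.05 SE was the lowest of all OXPHOS genes tested (adjusted p = 1.7e-08). Ndufb11, also of the membrane arm, had 25.01 and 25.11 CPM in c-FOS cells and 37.8 and 36.6 CPM in control cells (-0.57 ± 0.06 SE, adjusted p = 1.93e-06). Ndufa5, Ndufs6 and Ndufa12, accessory subunits of the arm outside the membrane, had values of -0.56, -0.54 and -0.51. At the other end, Ndufb4 had 2.12 and 1.97 CPM in c-FOS cells and 1.65 and 1.56 CPM in control cells. The c-FOS libraries were higher, but at these low counts (58.5 and 60.5 in c-FOS, 49.0 and 48.5 in control) the value of 0.35 ± 0.20 SE did not pass (adjusted p = 0.139). Ndufa2, Ndufa7, Ndufa9, Ndufb3 and Ndufs5, which like Ndufb4 are accessory subunits, did not pass either, with values between -0.02 and -0.14.

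Complex II, which also serves the tricarboxylic acid cycle and is encoded by 4 nuclear genes, had the smallest summed decrease of the 5 complexes, 7.17% (442.2 CPM in each c-FOS library, against 479.3 and 473.4 CPM in the control libraries), with 3 of 4 genes lower. Sdha, the flavoprotein that oxidizes succinate, had 150.4 and 148.8 CPM in c-FOS cells and 143.5 and 143.2 CPM in control cells. It was slightly higher in both c-FOS libraries, without passing (0.06 ± 0.04 SE, adjusted p = 0.164). Sdhb, the iron-sulphur subunit, had 94.9 and 93.5 CPM in c-FOS cells and 107.6 and 108.7 CPM in control cells (-0.20 ± 0.04 SE, adjusted p = 0.000511). Sdhd and Sdhc anchor the complex in the membrane. Sdhd had 75.4 and 76.8 CPM in c-FOS cells and 95.1 and 92.8 CPM in control cells, with the groups well apart (-0.30 ± 0.04 SE, adjusted p = 1.93e-05). Sdhc had 121.5 and 123.1 CPM in c-FOS cells and 133.1 and 128.7 CPM in control cells, a narrower gap (-0.10 ± 0.04 SE, adjusted p = 0.0417). The Sdhc call was lost with DESeq2 (adjusted p = 0.186), with RLE factors (0.0543), with the length correction (0.951) and without any of 3 libraries: c-FOS replicate 1 (0.295), c-FOS replicate 2 (0.188) or control replicate 1 (0.0933).

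Complex III had all 8 genes lower, a median of -0.35 and a summed level 22.6% lower (729.5 ± 4.12 CPM in c-FOS cells, 942.2 ± 0.870 CPM in control cells, SD, n = 2). The core protein Uqcrc1 had 138.6 and 141.0 CPM in c-FOS cells and 186.1 and 183.9 CPM in control cells, and replicates lay close together (-0.40 ± 0.04 SE, adjusted p = 3.78e-07). Uqcrfs1, the Rieske iron-sulphur protein that passes on the electrons, had 83.9 and 85.1 CPM in c-FOS cells and 105.9 and 107.7 CPM in control cells (-0.34 ± 0.04 SE, adjusted p = 4.82e-06). Among the small accessory subunits, Uqcr10 had 95.8 and 95.0 CPM in c-FOS cells and 141.1 and 140.0 CPM in control cells. Its decrease was the largest in the complex (-0.56 ± 0.04 SE, adjusted p = 1.65e-08), followed by Uqcrb (-0.49), and Uqcrq had the smallest (-0.26). Cyc1, the cytochrome c1 subunit of complex III whose symbol lies outside the naming rule, had 81.6 and 82.7 CPM in c-FOS cells and 125.8 and 121.5 CPM in control cells. It was also lower (-0.59 ± 0.04 SE, adjusted p = 1.61e-08), and of the 4 subunit genes outside the rule that were looked up, 3 were lower (median -0.22, but -0.12 and 1 lower with the length correction).

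Complex IV had 12 of 20 genes tested and all 12 were lower, with a median of -0.31 and a summed level 18.3% lower (1377 ± 7.11 CPM in c-FOS cells, 1686 ± 18.4 CPM in control cells, SD, n = 2). Several subunits of this complex come as isoforms, a general form and a form of muscle, lung, testis or other tissues. In each such set the general form carried nearly all the counts in both groups. Cox4i1 had 295.1 and 299.4 CPM in c-FOS cells and 346.3 and 344.0 CPM in control cells and fell (-0.22 ± 0.04 SE, adjusted p = 0.000101), while its partner Cox4i2 was at or below 0.0336 CPM in every library. Cox6a1 had 241.8 and 242.6 CPM in c-FOS cells and 272.4 and 263.2 CPM in control cells, the smallest decrease of the complex (-0.14 ± 0.04 SE, adjusted p = 0.00322). Without c-FOS replicate 1 or 2 the Cox6a1 call was lost (adjusted p = 0.0739 and 0.0614). Cox6b1 had 154.6 and 153.8 CPM in c-FOS cells and 175.5 and 172.0 CPM in control cells (-0.17 ± 0.04 SE, adjusted p = 0.00106).

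Cox8a and Cox5b had the largest decreases of complex IV. Cox8a, a small membrane subunit, had 155.5 and 159.1 CPM in c-FOS cells and 238.1 and 230.2 CPM in control cells. The groups were far apart (-0.57 ± 0.04 SE, adjusted p = 1.09e-08). Cox5b, a zinc-binding subunit, had 12.2 and 14.9 CPM in c-FOS cells and 23.5 and 20.4 CPM in control cells, with more spread between replicates (-0.69 ± 0.10 SE, adjusted p = 3.67e-05). Cox7a2 had 53.8 and 50.6 CPM in c-FOS cells and 63.2 and 66.3 CPM in control cells (-0.31), and Cox7b had 72.4 and 72.6 CPM in c-FOS cells and 86.0 and 88.2 CPM in control cells (-0.27). Cox7a2l, a related protein that joins complexes III and IV into supercomplexes, was lower too (-0.39 ± 0.07 SE, adjusted p = 0.000387). Ndufa4 had 217.4 and 214.8 CPM in c-FOS cells and 272.7 and 265.4 CPM in control cells (-0.32 ± 0.04 SE, adjusted p = 3.52e-06).

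The 8 genes with too few counts to test were Ndufa4l2 and the tissue-restricted isoforms Cox4i2, Cox6a2, Cox6b2, Cox7a1, Cox7b2, Cox8b and Cox8c. Cox6b2, Cox8b and Cox8c had 0 counts in every library, which allows up to 0.108 and 0.0968 CPM in the c-FOS libraries and 0.101 and 0.0958 CPM in the control libraries (3 counts each, counting error only). The highest value among the other 5 was 0.194 CPM, for Cox7a1 in c-FOS replicate 2. Differences among counts this low were not tested.

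Complex V had 13 of 16 genes lower, a median of -0.33 and the largest summed decrease of the 5 complexes, 27.6% (2717 ± 31.2 CPM in c-FOS cells, 3752 ± 53.7 CPM in control cells, SD, n = 2). Much of this sum came from the catalytic head. Atp5b, the beta subunit with the catalytic sites, had 1181 and 1206 CPM in c-FOS cells and 1717 and 1684 CPM in control cells. It held the most counts of all OXPHOS genes, and its groups lay far apart (-0.51 ± 0.04 SE, adjusted p = 1.97e-08). Atp5a1, the alpha subunit, had 554.7 and 555.0 CPM in c-FOS cells and 782.5 and 762.7 CPM in control cells (-0.48 ± 0.04 SE, adjusted p = 3.33e-08). The central stalk genes Atp5c1, Atp5d and Atp5e and the peripheral stalk genes Atp5f1, Atp5h, Atp5j and Atp5o were all lower, with values between -0.23 and -0.45.

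The proton-carrying c-ring is made from 3 genes that encode the same mature protein with different import signals. Atp5g3 had 164.6 and 172.4 CPM in c-FOS cells and 273.0 and 264.7 CPM in control cells. Per kilobase of gene model it stood at 235.1 CPM in c-FOS cells and 375.0 CPM in control cells, while Atp5g1 stood at 36.9 CPM in c-FOS cells and 44.8 CPM in control cells, and its decrease was the largest called one of complex V (-0.67 ± 0.04 SE, adjusted p = 2.55e-09). Atp5g1 had 29.6 and 28.8 CPM in c-FOS cells and 37.8 and 33.0 CPM in control cells, with spread between the control libraries (-0.28 ± 0.07 SE, adjusted p = 0.00354). Without control replicate 1 its value was -0.18, against -0.37 without control replicate 2. Atp5g2 had 0.216 and 0.291 CPM in c-FOS cells and 0.336 and 0.479 CPM in control cells, too few counts to pass (-0.67 ± 0.45 SE, adjusted p = 0.2). Together the c-ring genes summed to 194.4 and 201.5 CPM in c-FOS cells and 311.2 and 298.2 CPM in control cells, 35.0% lower. Atp5l, a membrane subunit, had only 1.19 and 1.29 CPM in c-FOS cells and 1.61 and 1.05 CPM in control cells, and its groups overlapped (-0.10 ± 0.26 SE, adjusted p = 0.757). Atp5s, a coupling factor not built into the core enzyme, did not pass either (-0.13).

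**Figure D2:**
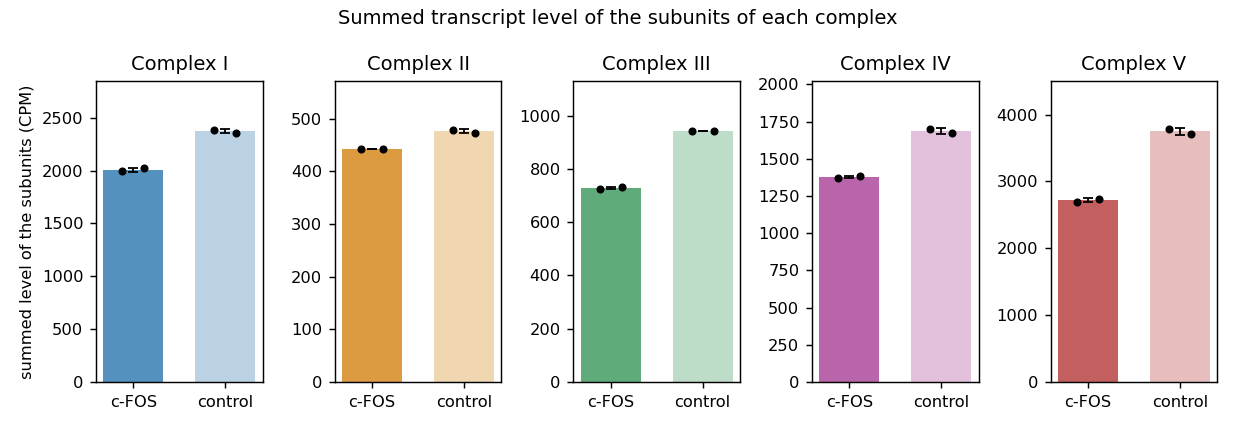
Summed level of the subunit transcripts of each complex, in CPM on axes that start at 0, for c-FOS (left bar) and control (right bar); bars are means, error bars SD and points the 2 libraries. In each complex both c-FOS libraries lie below both control libraries, by 7.17% in complex II to 27.6% in complex V.

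Per kilobase of gene model, the levels of subunits of the same complex spanned a wide range in both groups. Atp5b was highest, with 639.3 CPM per kilobase in c-FOS cells and 911.0 in control cells, followed in c-FOS cells by Cox6a1 (458.7, against 507.2 in control cells), Cox4i1 (449.0, against 521.3) and Ndufa4 (440.1, against 548.0). In control cells the order of these 3 was reversed, with Ndufa4 above Cox4i1 and Cox4i1 above Cox6a1. In complex I, Ndufa7 was highest in c-FOS cells (174.8, against 180.4 in control cells) and in control cells it was Ndufb9 (169.3 in c-FOS cells, 216.7 in control cells). The lowest tested genes per kilobase were Atp5g2, Atp5l, Atp5s and Ndufb4, all below 5 CPM per kilobase in both groups.

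To see which subunits departed from the rest, the libraries were scaled to the summed counts of the 83 genes and the edgeR test was run again over the whole table, a comparison chosen after the data were seen. On this scale 21 of the 75 genes were higher and 11 were lower than the summed subunits, against 62.6% and 14.3% of all tested genes. The lower share was thus near that of all genes. Since the genes' own sum sets the scale, they lie around 0 on it by construction. The share of all genes called higher therefore restates the decrease of the sum. A gene called higher here had a smaller decrease than the sum, or none. By complex, 14 of the higher genes belonged to complex I, 3 each to complexes II and IV, and 1 to complex V. Of the 11 lower genes, 4 belonged to complex I, 4 to complex V, 2 to complex IV and 1 to complex III. The relative log2 fold change of Sdha was 0.40 ± 0.04 SE (adjusted p = 1.8e-06) and that of Ndufa2 was 0.33 ± 0.04 SE. At the low end stood Ndufb5 (-0.41 ± 0.05 SE) and Atp5g3 (-0.33 ± 0.04 SE).

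Since the sum leans on Atp5b and Atp5a1, the comparison was repeated without them, and 12 genes were then higher and 18 lower. Without c-FOS replicate 1 there were 12 higher and 9 lower, and without c-FOS replicate 2 there were 15 higher and 7 lower. Genes higher in every setting run included Cox6a1, Cox6b1, Ndufa13, Ndufa2, Ndufa7, Ndufa9, Ndufb3, Ndufb4, Ndufv1, Sdha and Sdhc. In every setting run, 5 were lower: Atp5b, Atp5g3, Cox8a, Ndufb5 and Uqcr10.

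**Figure D3:**
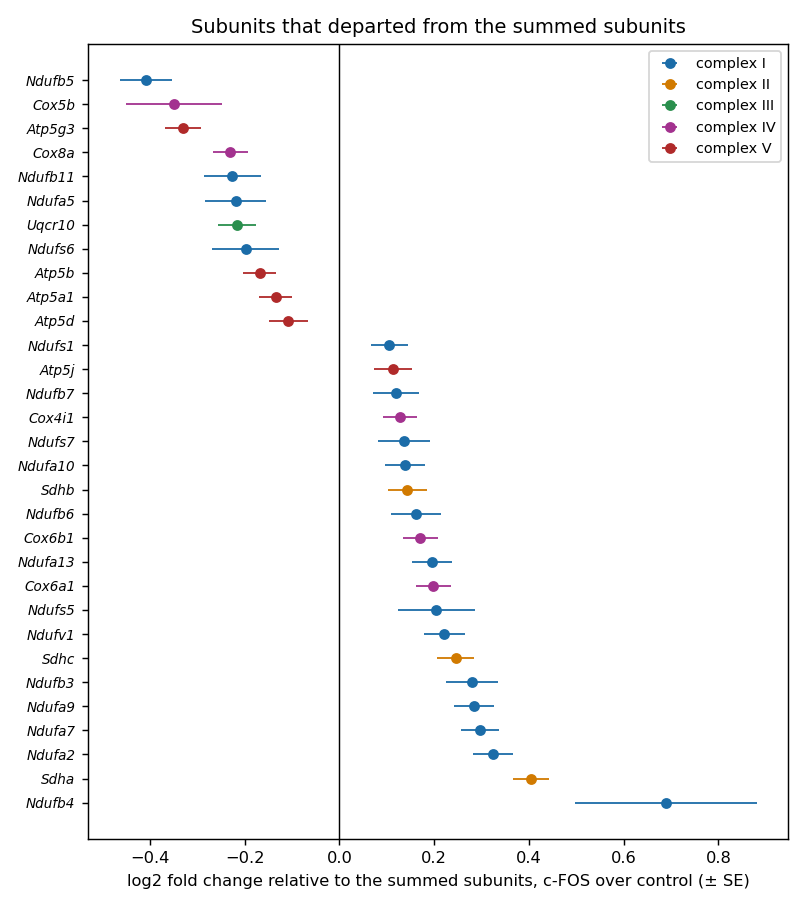
Of the 32 OXPHOS genes that passed the test relative to the summed subunits, 31 are drawn: log2 fold change, c-FOS over control, with its standard error (2 libraries per group), coloured by complex. The 11 genes left of zero fell more than the sum and the 20 right of zero fell less or did not fall; complex II genes lie only on the right, and the 1 complex III gene on the left.

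Calls of 9 of the 64 lower genes were lost under at least 1 setting other than the length correction. Leaving out c-FOS replicate 1 ended the calls of 8 (Cox6a1, Cox7c, Ndufa13, Ndufb2, Ndufc1, Ndufs7, Ndufv1 and Sdhc), with adjusted p between 0.0565 for Ndufs7 and 0.295 for Sdhc. Leaving out c-FOS replicate 2 ended those of 5 (Cox6a1, Ndufb2, Ndufb6, Ndufv1 and Sdhc), with adjusted p between 0.051 for Ndufb2 and 0.188 for Sdhc. Leaving out control replicate 1 ended the calls of Ndufv1 and Sdhc (0.112 and 0.0933), and leaving out control replicate 2 that of Cox7c (0.11). DESeq2 did not call 6 of the 9, Cox7c, Ndufa13, Ndufb2, Ndufs7, Ndufv1 and Sdhc, with adjusted p between 0.0503 for Ndufs7 and 0.201 for Cox7c. Ndufv1 moved to -0.07 without control replicate 1 and to -0.17 without control replicate 2.

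Some values may mix transcripts, since no source used here gives the strand setting of the counting. In the mouse GENCODE annotation, 18 of 82 members found there share exon bases with another gene of the table. Atp5o does so on the same strand, with Donson. On opposite strands, Ndufb2 meets Braf, Ndufs3 meets Kbtbd4 and the untested Ndufa4l2 meets Shmt2, and these partners held more counts than the member. Ndufs6 meets Mrpl36, which also had more counts and was itself lower (-0.44, against -0.54 for Ndufs6). Ndufb5, with the lowest value, shares 158 bases with Mrpl47 (-0.26). Ndufb11 shares 117 bases with Rbm10, which had fewer counts and a value of -0.56, against -0.57 for Ndufb11. RefSeq also names pseudogenes of 9 members (Atp5c1, Atp5f1, Atp5k, Atp5l, Cox5b, Cox7c, Ndufa12, Ndufs5 and Uqcrh). Reads of these may be split between copies, so their levels are uncertain, which bears on Cox5b, Ndufa12 and Atp5l above. The same holds for Ndufb4, of which RefSeq lists the further copies Ndufb4b and Ndufb4c.

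Gene length moved with the fold changes in this table. Among tested genes other than the OXPHOS members, the median log2 fold change was -0.27 for the 265 gene models under 600 bases, -0.09 for 600 to 1000, -0.05 for 1000 to 2000, -0.00 for 2000 to 4000 and 0.05 for 4000 and over. OXPHOS genes are short, and 28 of the 75 tested lay under 600 bases. Their median there, -0.32, was close to that of other genes of that length, and 82.1% of them were lower, against 41.1% of the others. From 600 to 1000 bases the 21 members had a median of -0.36, against -0.09 in 651 other genes. From 1000 to 2000 bases the 20 members had -0.26, against -0.05 in 2773 others, and from 2000 to 4000 bases the 6 members had -0.24, against -0.00 in 5156 others. The members of these 3 longer classes thus lay below the other genes of their length.

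When a trend on length was removed in each library before the test, 47 of the 75 were lower, against 32.9% of all tested genes. With this correction 3 were higher, against 34.3% of all tested genes: Ndufb4 (0.56, adjusted p = 0.0235), Ndufa2 (0.17, adjusted p = 0.00225) and Ndufa7 (0.16, adjusted p = 0.00327). Complex I had 20 of 35 genes lower under it (median -0.16, against -0.26 without it), complex II had 1 of 4 (-0.05, against -0.15), complex III all 8 (-0.27, against -0.35), complex IV 8 of 12 (-0.13, against -0.31) and complex V 10 of 16 (-0.23, against -0.33). The correction ended 17 calls: Atp5g1, Atp5j, Atp5k, Cox4i1, Cox6a1, Cox6b1, Cox7c, Ndufa13, Ndufa6, Ndufb2, Ndufb6, Ndufb7, Ndufc1, Ndufs7, Ndufv1, Sdhb and Sdhc. The head and main c-ring genes Atp5b, Atp5a1 and Atp5g3 had values of -0.48, -0.47 and -0.50. The cause of the relation with length was not tested.

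**Figure D4:**
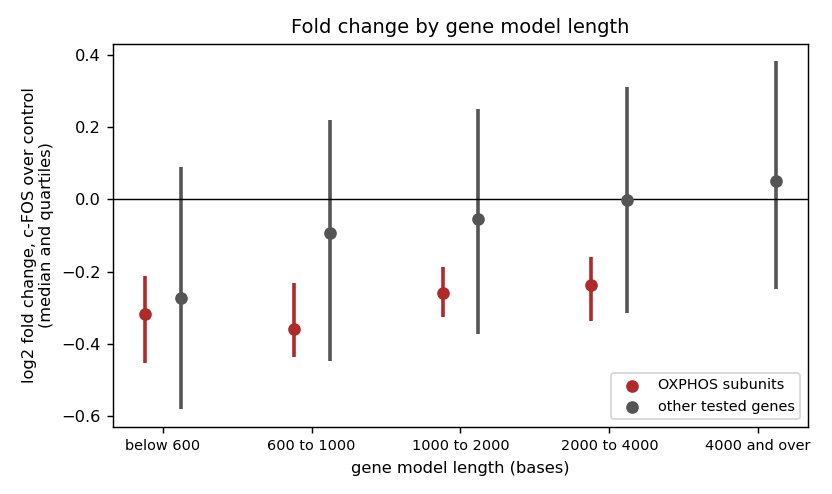
Median (point) and quartiles (line) of the log2 fold change, c-FOS over control, by gene model length in bases, for OXPHOS subunits (red) and other tested genes (grey). Below 600 bases the medians are -0.32 and -0.27; in the 3 classes from 600 to 4000 bases the OXPHOS genes lie lower, and no member is 4000 bases or longer.

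Genes that work beside the OXPHOS subunits were taken from the same fit, in which 33.8% of all tested genes were higher and 33.3% lower. Assembly factors, which build the complexes without staying in them, went both ways. Of the factors of complex I, 3 of 15 were higher and 7 lower (median -0.17, but -0.06 with the length correction), with Nubpl (-0.55) and Ndufaf6 (-0.50) at the low end. Of those of complex IV, 3 of 25 were higher and 9 lower, a share near that of all genes (median -0.05), with Coa3 (-0.80) lowest. With the length correction 5 were higher and 8 lower (median -0.02). Of 6 factors of complex III, 1 was higher and 3 lower (median -0.22, but -0.13 with the length correction), and of 4 factors of complex II, Sdhaf2 was higher (0.34) and Sdhaf1 lower (-0.39). The complex II factor median of 0.03 turned to -0.10 with library totals, to -0.03 with upper-quartile factors, to -0.04 without c-FOS replicate 2 and to -0.06 without control replicate 1. It was 0.22 with the length correction, 0.11 without c-FOS replicate 1 and 0.15 without control replicate 2. Among the 5 genes of complex V assembly and inhibition, 3 were lower, including the assembly factor Fmc1, with 2.91 and 3.52 CPM in c-FOS cells and 7.80 and 7.22 CPM in control cells (-1.22), and Atpif1, the ATPase inhibitor (-0.41). The calls of Nubpl without c-FOS replicate 2 (adjusted p = 0.0516) and of Ndufaf6 without c-FOS replicate 1 (0.0802) were lost, and with DESeq2 both were (0.0506 and 0.125).

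Upstream of the chain, 11 of 14 genes of the tricarboxylic acid cycle were lower and 0 higher (median -0.28), against 33.3% and 33.8% of all tested genes, with Suclg2, of succinyl-CoA ligase (-1.13), and Idh3a, of NAD-dependent isocitrate dehydrogenase (-0.79), lowest. Of 11 genes of pyruvate entry, 4 were lower, a share near that of all genes, and 0 higher (median -0.10). In both lists, edgeR at an unadjusted p under 0.05 and DESeq2 also had 0 genes higher. With the length correction 10 genes of the cycle were lower and 1 higher, and 2 of pyruvate entry were lower and 0 higher. Pdk1, the kinase that inhibits pyruvate dehydrogenase, had 33.9 and 35.7 CPM in c-FOS cells and 66.0 and 68.1 CPM in control cells (-0.95). Of 19 glycolysis genes, 12 were lower and 4 higher (median -0.25), and Slc2a1, the glucose transporter GLUT1, had 127.1 and 125.4 CPM in c-FOS cells and 361.9 and 332.4 CPM in control cells (-1.46). Of 13 fatty acid oxidation genes, 5 were lower and 3 higher (median -0.08, but -0.01 with the length correction). Of the acyl-CoA dehydrogenase genes, Acadvl (0.45) and Acadl (0.36) rose, Acads (-0.25) was lower and Acadm (0.04) did not pass. Of 13 genes of cytochrome c and coenzyme Q synthesis, 7 were lower and 2 higher (median -0.19).

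A list of adenine nucleotide and phosphate carriers, porins of the outer membrane and mitochondrial creatine kinase had 5 of 7 tested genes lower and 0 higher (median -0.26), and 1 higher with the length correction. The 5 were the carriers Slc25a3 and Slc25a5, the porins Vdac1 and Vdac2, and Ckmt1, while the carrier Slc25a4 (0.07) and the porin Vdac3 (0.06) did not pass. Here too edgeR at an unadjusted p under 0.05 and DESeq2 had 0 genes higher. Ckmt1, mitochondrial creatine kinase, had 2.52 and 2.45 CPM in c-FOS cells and 39.3 and 32.2 CPM in control cells (-3.84 ± 0.13 SE, adjusted p = 5.71e-12). Slc25a5, an adenine nucleotide carrier, had 76.9 and 75.8 CPM in c-FOS cells and 170.2 and 174.9 CPM in control cells (-1.18 ± 0.04 SE, adjusted p = 8.46e-12). Of 22 protein import genes, 8 were lower, a share near that of all genes, and 2 higher (median -0.10), and with the length correction 4 were lower and 4 higher (median -0.02). Of 7 genes of cristae organisation, 3 were lower and 1, Opa1, was higher (median -0.18). Of 9 antioxidant enzyme genes, 4 were higher and 2 lower (median -0.07, but 0.02 with the length correction), with Gpx1 up (0.64) and the mitochondrial superoxide dismutase Sod2 down (-0.55). The mitochondrial ribosome, whose products join the same complexes, had 27 of 77 genes lower and 10 higher (median -0.03), the lower share being near that of all genes. With the length correction the balance turned, to 14 lower and 22 higher (median 0.04).

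Among 14 regulators of mitochondrial biogenesis, 8 were lower and 1 higher (median -0.20). Ppargc1a had 23.6 and 24.2 CPM in c-FOS cells and 77.8 and 76.7 CPM in control cells, a difference far beyond the spread between libraries (-1.69 ± 0.05 SE, adjusted p = 2.3e-12). Esrra, which encodes the receptor ERR-alpha, had 62.9 and 67.1 CPM in c-FOS cells and 130.7 and 116.9 CPM in control cells (-0.93 ± 0.06 SE, adjusted p = 2.93e-09). Nrf1 (-0.33), Yy1 (-0.16) and Tfam (-0.47), the mitochondrial transcription factor, were also lower. The 1 called higher was Pprc1 (0.17, adjusted p = 0.00275). Gabpa (0.05), whose exons overlap those of Atp5j, did not pass, nor did Gabpb1 (0.17), Tfb2m (0.17), Myc (0.05) and Tfb1m (-0.18). Whether these regulators account for the subunit levels was not tested.

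**Figure D5:**
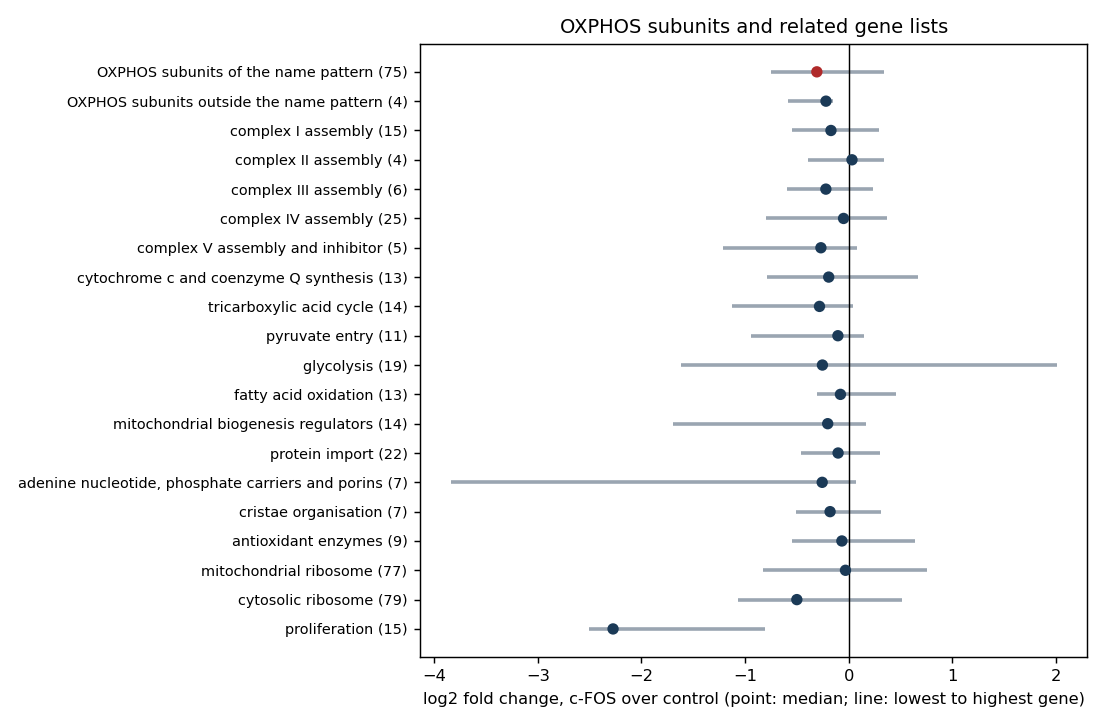
Median log2 fold change (point) and range (line, lowest to highest tested gene), c-FOS over control, of the OXPHOS subunits (red) and related lists, with the number of tested genes in parentheses. The OXPHOS median is -0.31, the cytosolic ribosome lies at -0.50 and the proliferation genes at -2.27, while the mitochondrial ribosome lies at -0.03.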

How the data were processed

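RNA-seq counts of 2 c-FOS and 2 control libraries of ASZ001 cells were analysed. The series design text names TopHat for alignment, followed by HOMER; the submitters' processing notes list build mm9 and DESeq2. The authors deposited 1 expected count per gene symbol and library, not normalized, in steps of 0.5; 48.0% of the values above 0 were not whole. A gene model length in bases stands beside each symbol. Of 24909 rows, 7443 were 0 in every library, 26 had a date-like symbol, and 2 symbols stood on 2 rows (the row with the higher total was used), which left 24907 genes. Rn45s, the ribosomal RNA precursor, took 4.65% and 4.58% of counts in c-FOS libraries and 4.41% and 4.10% in control libraries.

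Counts were rounded to whole numbers (0.5 upward) and tested with edgeR 4.0.16 in R 4.3.3: filterByExpr by group (minimum count 10, minimum total 15), TMM factors, glmQLFit and glmQLFTest of c-FOS over control with no covariate, two-sided, Benjamini-Hochberg adjustment over all 12791 tested genes at 0.05. The gene-wise spread, with 2 residual degrees of freedom, was shrunk towards a trend over all genes (prior degrees of freedom 11.3, common biological coefficient of variation 3.38%). SE derives from the quasi-likelihood F statistic, and SD is over n = 2. The script was checked on simulated data with known changes. Replicates differed by more than sampling noise (chi-square per degree of freedom 1.93 in c-FOS and 4.82 in control).

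The members, the related lists and the tests were chosen with earlier results of these data known. Named genes were, per complex, the highest and the 2 lowest tested members, isoform sets and core subunits, and from each related list up to 3 called genes with the largest change; the other genes named were chosen after their values were seen. One item that this rule covers is not reported here. Alternatives were RLE, upper-quartile and no factors, DESeq2 1.42.0, no filter, a filter of 50 counts in 2 libraries, a replicate block, removal of Rn45s, a length trend removed per library, and leaving out each library. Promoter windows are RefSeq's on GRCm38.p6, exon overlaps are from GENCODE on GRCm38, and no coordinates were converted to mm9.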

Additional observations from a re-analysis of the deposited data

How the results depend on the processing

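The decrease of the OXPHOS genes kept its direction in every alternative run, with 47 to 70 of the tested members called lower. The lowest count, 47, came with the length correction, which also gave 3 higher members in place of 0. Leaving out 1 library at a time gave 56 to 63 lower members; the lone library of a group is there assumed to vary like the other group. The median log2 fold change of -0.31 was -0.44 with library totals, -0.37 with upper-quartile factors and -0.16 with the length correction. With library totals the median of all tested genes was -0.14, against -0.01 with TMM, so the OXPHOS median moved with it. Over all genes, library totals gave 3217 higher and 5878 lower and upper-quartile factors 3789 higher and 5025 lower, against 4324 higher and 4265 lower with TMM. In all, 55 of the 64 lower members were called in every setting but the length correction, and 47 in every setting.

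The length correction turned the direction of Cox6a1 (0.056), Cox6b1 (0.0332), Ndufa2 (0.17), Ndufa7 (0.16) and Ndufb6 (0.0002), of 4 members called in neither fit (Ndufa9, 0.02; Ndufb3, 0.10; Ndufs5, 0.07; Atp5l, 0.11), of the medians of antioxidant enzymes (0.0169) and of the mitochondrial ribosome (0.0439), and of Ndufs1 relative to the summed subunits (-0.0064). The complex II assembly median log2 fold change (0.03) turned to -0.10 (library totals) and -0.0298 (upper-quartile factors), was 0.2215 with the length correction, and lay between -0.0579 (without control replicate 1) and 0.1467 (without control replicate 2) with 1 library left out. The cause was not tested. Relative to the summed subunits, 12 members were higher and 18 lower when Atp5b and Atp5a1 were left out of the sum. Leaving out 1 library there gave 12 to 23 higher and 7 to 13 lower.

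Replicate numbers do not mark a shared culture or day in the labels, and the deviations of same-numbered libraries were not related (correlation -0.069). With the number as a replicate block, 63 members were lower, 0 higher and the median was -0.31; the call of Sdhc was lost. Low counts limited the test of Atp5g2, Atp5l and Ndufb4 and left 8 members untested.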
